A study of Mus musculus with 4 samples.

Results

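Periostin, tenascin-C, the thrombospondins, SPARC and the spondins are secreted proteins that bind the extracellular matrix and cell surfaces, while LRRC15 is a leucine-rich repeat protein of the cell membrane. Expression of 10 such genes (Postn, Lrrc15, Tnc, Thbs1, Thbs2, Thbs3, Sparc, Sparcl1, Spon1 and Spon2) was read in mouse embryonic fibroblasts (MEFs), out of 27745 gene names on the arrays, a number that includes clone and transcript identifiers. The members were chosen from their function and from earlier values of the same density and genotype contrasts, so all counts and values of these contrasts below are a description and no test was made of them. All probes outside the controls whose annotated gene name is one of the 10 symbols were taken, which gave 19 probes, with 7 genes read by several probes and 3 genes (Postn, Thbs2 and Thbs3) by 1. The arrays held MEFs of the C57BL/6J strain, cultured in DMEM with inactivated fetal bovine serum, penicillin and streptomycin. Their genotype was labelled Lats2-/- (KO) or Lats2+/+ (WT). Low density cultures were sampled after 48 h while subconfluent, and high density cultures after 3 to 5 days, so that time in culture changed together with density. Lats2 is a kinase of the Hippo pathway, and neither the number of embryos or cell lines behind a genotype nor the pooling of cultures is given in the labels.

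Matricellular proteins are part of the matrix without forming its main scaffold, and act by binding integrins, growth factors and collagens. Periostin and tenascin-C are produced by activated fibroblasts during development and wound repair. Thrombospondin-1 can activate latent TGF-beta, SPARC is a chaperone-like binder of collagen, and LRRC15 is used as a surface marker of TGF-beta responsive myofibroblasts. In the Hippo pathway, crowding of cells activates the LATS kinases, which keep the coactivators YAP and TAZ out of the nucleus and thereby away from TEAD transcription factors.

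The design put low against high density RNA on 2-colour Agilent arrays, 2 arrays per genotype, and on the second array Cy3 and Cy5 were exchanged. Such a dye swap is a technical repeat, so there was 1 replicate per genotype and density, and no difference below has a replicate check. Replicate 1 and replicate 2 denote the arrays of a pair. Of the spots in a channel, 52.8% to 67.7% stood well above their background, and precision is limited by how few arrays there are. The arrays labelled WT shared 1 slide and scan day, the arrays labelled KO came from 2 other slides scanned on different days, and slide, culture and genotype cannot be told apart. The targeted gene was examined first: 3 of the 4 Lats2 probes were higher on the arrays labelled KO at both densities, against the label, with log2 ratios between 0.91 and 1.49, and the remaining probe was lower, with -0.63 at low and -1.26 at high density. The 3 higher probes lie close together (chromosome 14, 56644080 to 56645305, build mm8), apart from the lower probe at 56676512 to 56676571. Every direction between genotypes below rests on the labels. Of the fibroblast markers, 8 of 8 (Col1a1, Col1a2, Col3a1, Vim, Pdgfra, Pdgfrb, Thy1 and S100a4) passed that background limit in all 8 channels. The epithelial markers Epcam, Cdh1 and Krt8, the endothelial markers Pecam1, Cdh5 and Tie1, and the macrophage markers Emr1 and Ptprc passed it in none. Of the remaining markers of these lists, the macrophage markers Cd68 and Cd14 passed it in all 8 channels and Csf1r in 6, and epithelial Krt18 and endothelial Kdr passed it on both WT arrays at low density only. Endothelial Tek passed it in 1 channel.

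Promoter sequences are shown for the members with the largest genotype ratio (Postn and Lrrc15) and for Tnc, whose density effect had opposite signs in the genotypes. They are the 250 bases upstream of an annotated RefSeq start (assembly GRCm38.p6), on the strand of the gene. The reference table held 8 promoters of 6 members (Postn, Lrrc15, Tnc, Thbs2, Thbs3 and Sparc), whereas Thbs1, Sparcl1, Spon1 and Spon2 were not looked up elsewhere. Capitals mark letters found in a search for 3 motifs on both strands, with no overlap among the matches shown. The core of a TEAD site was searched as GGAATG. An AP-1 site was searched as TGANTCA. The letters for a TATA box were TATAAA. The Postn window lies at chr3:54360857-54361106 on the plus strand, the Lrrc15 window at chr16:30283255-30283504 on the minus strand, and the Tnc window at chr4:64047016-64047265 on the minus strand.
Postn: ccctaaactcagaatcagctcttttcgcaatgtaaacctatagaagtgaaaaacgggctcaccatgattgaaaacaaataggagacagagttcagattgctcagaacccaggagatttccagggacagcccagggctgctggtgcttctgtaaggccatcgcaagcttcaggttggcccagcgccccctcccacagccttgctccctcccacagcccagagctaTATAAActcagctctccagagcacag
Lrrc15: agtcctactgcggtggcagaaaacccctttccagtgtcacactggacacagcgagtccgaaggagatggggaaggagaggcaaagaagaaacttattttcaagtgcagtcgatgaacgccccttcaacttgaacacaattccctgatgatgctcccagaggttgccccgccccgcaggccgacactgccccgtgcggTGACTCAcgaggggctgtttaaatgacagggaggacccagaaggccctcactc
Tnc: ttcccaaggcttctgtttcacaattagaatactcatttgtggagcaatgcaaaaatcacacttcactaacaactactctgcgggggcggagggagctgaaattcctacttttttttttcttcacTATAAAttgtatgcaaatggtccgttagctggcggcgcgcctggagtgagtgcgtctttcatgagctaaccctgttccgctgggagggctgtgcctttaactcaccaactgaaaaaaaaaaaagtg

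The Postn window held a TATA box that begins 26 bases before the start, and the Lrrc15 window an AP-1 match that begins 53 bases before it. The Tnc window held a TATA box letter match that begins 126 bases before the start. Postn and Tnc each have a further annotated start, 1840 and 79 bases away. The TEAD letters occurred in 0 of the 8 member windows, against 12.6% of all 32851 windows of the same length in the table. The AP-1 letters occurred in 1 of 8, against 6.75% of all windows, and TATAAA in 4 of 8, against 12.4%. The latter came from 3 genes (Postn, Tnc and Thbs2), because the windows of both Tnc starts overlap and hold the same match, and the other Postn window held none. These are letter matches within a short window and do not show a bound site.

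All values below are on the log2 scale, from intensity corrected for background and dye. A density effect is the log2 ratio of high over low density, and a genotype ratio is labelled KO over labelled WT within 1 dye, both averaged over the dye swap. A gene was read at its brightest probe. It was compared in a contrast if that probe was well above background on both arrays (or in both dyes) on at least 1 side, and passed the threshold if the log2 ratio averaged 1 or more in size, which is 2-fold, and both arrays had the same sign. Signals of different probes are not comparable with each other, so levels are ordered only within a gene.

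Periostin, a ligand of integrins that also binds collagen and tenascin-C, had its highest level in the KO cells and the largest density effect of the members in the WT cells. With the processed signals of the scanner software, however, the WT effect of Sparcl1 was larger (5.74 against 5.35 for Postn). Its probe (A_51_P489192, chromosome 3, 54478490 to 54478549, build mm8) gave log2 signals of 8.39 and 8.17 in WT cells at low density on replicate 1 and replicate 2, and 13.33 and 13.26 at high density. In KO cells the signals were 13.94 and 14.10 at low density and 15.74 and 16.17 at high density. Every KO value thus lay above every WT value, and the signals of the 4 conditions did not overlap. Postn rose with density by 5.02 in WT (32.3-fold, 4.94 and 5.09 on the 2 arrays) and by 1.94 in KO (3.83-fold, 1.81 and 2.07), a difference of -3.08 between KO and WT. With median centring of the arrays the KO value was 1.29. It was higher in KO by 5.74 at low density (53.5-fold) and by 2.66 at high density (6.34-fold). In the order of all genes compared, Postn ranked 9 from the highest density effect in WT and 230 in KO.

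The gene closest to Postn in its profile over the 4 conditions was Slit3, a guidance ligand, with a root mean square distance of 0.57 on the log2 scale. It was followed by Sulf2, an extracellular sulfatase of heparan sulfate, at 0.59, and by Pdgfra, a receptor of platelet-derived growth factors, at 0.73. The search covered 12943 gene names with a probe well above background in all 8 channels. Each of these genes rose with density in both genotypes, by 4.35 and 1.66 for Slit3, 3.87 and 1.15 for Sulf2, and 3.05 and 1.68 for Pdgfra (WT and KO), and was higher in KO at both densities.

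LRRC15, the myofibroblast surface protein, was far higher in KO cells than in WT cells at both densities, and rose with density in KO cells. Its brightest probe (A_52_P90805, chromosome 16, 30189198 to 30189257) gave 7.27 and 7.46 in WT at low density and 6.59 and 6.90 at high density. In KO cells it gave 12.78 and 12.86 at low and 14.81 and 15.06 at high density. All 8 channels were well above background, and no condition overlapped another. The genotype ratio was 5.46 (43.9-fold) in sparse cells and 8.19 (291-fold) in crowded cells, which ranked 1 among the 15618 gene names compared there, and would rank last if the labels were exchanged. The density effect was 2.11 in KO (2.03 and 2.20) and -0.62 in WT (-0.68 and -0.56), which did not pass the threshold. With an offset of 0 in the background correction the WT value was -1.14, and with the processed signals of the scanner software -1.64, so the WT call depends on how dim signals were corrected. With those processed signals the genotype ratio at high density was 9.80.

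The second Lrrc15 probe (A_52_P112875, chromosome 16, 30192746 to 30192805) was not well above background in any WT channel. In KO it gave 10.41 and 10.31 at low and 11.89 and 11.33 at high density, a density effect of 1.25. The KO level was at least 16.7-fold above WT at low density and at least 40.4-fold at high density, where each WT array entered with the probe's own signal or, if higher, the smallest signal that still passed the background limit. The nearest profiles to Lrrc15 were those of Erdr1 (distance 1.01), 4933413A10Rik (1.13) and Grem1 (1.25), a secreted antagonist of bone morphogenetic proteins. None of the 3 was as close to Lrrc15 as the nearest genes were to Postn. The Grem1 genotype ratio was 4.51 at low and 4.95 at high density, and its density effects of -0.22 in WT and 0.22 in KO did not pass the threshold.

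**Figure D1:**
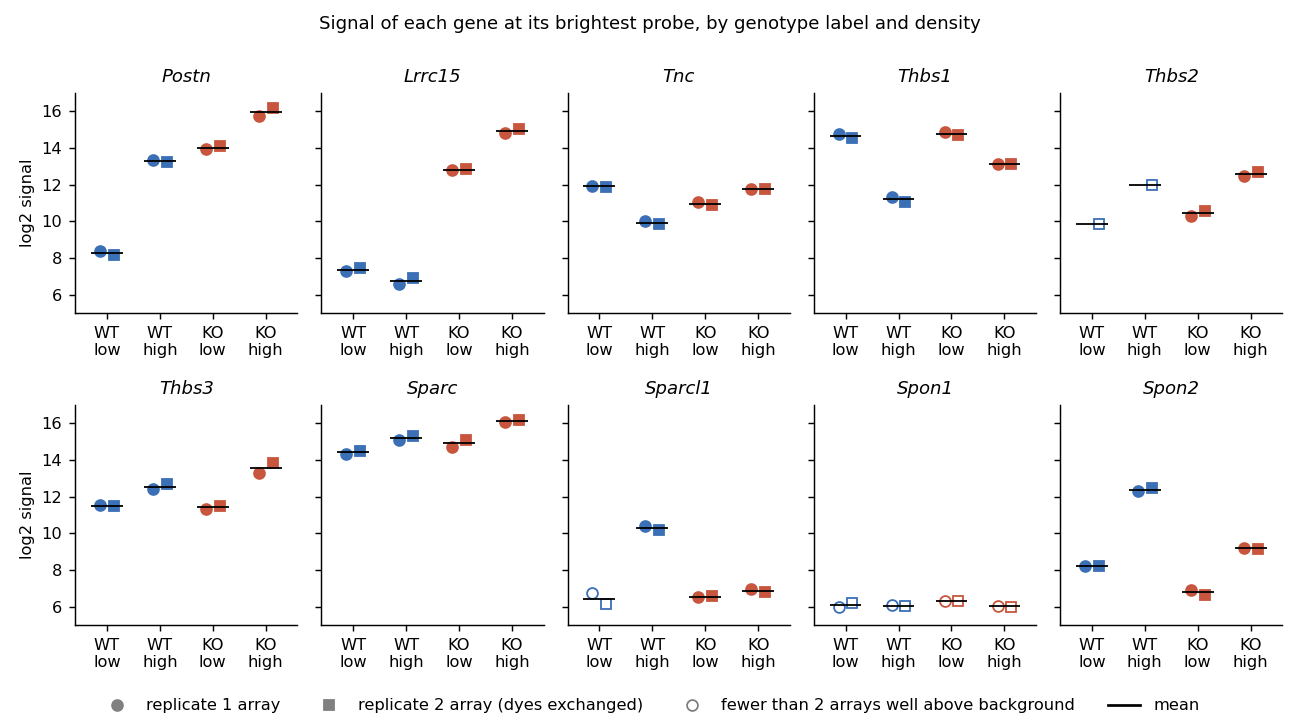
Log2 signal of the 10 genes at their brightest probe in each condition, with the replicate 1 array as circles, the replicate 2 array as squares and the mean as a line. Open symbols mark conditions with fewer than 2 arrays well above background. Levels can be compared within a panel only. Postn and Lrrc15 lie higher in both KO conditions than in either WT condition, while Sparcl1 stands above its other conditions in WT at high density.

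Tenascin-C, a large adhesion-modulating glycoprotein, had opposite signs of the density effect in the genotypes at each of its 3 probes. The brightest (A_51_P291438, chromosome 4, 63446146 to 63446191) gave 11.94 and 11.88 in WT at low density against 10.01 and 9.84 at high density. In KO it gave 11.04 and 10.91 at low against 11.75 and 11.77 at high density. The signals were highest in crowded KO and sparse WT cells, and lowest in crowded WT cells, with no overlap between conditions. Tnc fell by 1.98 in WT (3.95-fold), whereas the KO value of 0.79 did not pass the threshold. The difference of the density effects was 2.77, and 2.64 and 2.90 on the 2 array pairs. The other probes gave WT effects of -1.10 and -1.31 and KO effects of 0.44 and 0.36. At low density the genotype ratio was -0.93, just under the threshold, and at high density it was 1.84, with 0.77 and 1.39 at the other probes.

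Thrombospondin-1, an activator of latent TGF-beta and a ligand of CD36 and CD47, fell with density in both genotypes, by more in WT. The brightest probe (A_52_P363951, chromosome 2, 117817480 to 117817539) gave 14.78 and 14.53 in WT at low density and 11.35 and 11.05 at high density. In KO it gave 14.85 and 14.69 at low and 13.12 and 13.15 at high density. At this probe the low density signals of both genotypes overlapped, and the crowded WT cells were lowest. Thbs1 fell by 3.45 in WT (11.0-fold) and by 1.63 in KO (3.10-fold). The genotype ratio was 0.11 in sparse and 1.93 in crowded cells (3.82-fold). Both other probes gave 0.62 in sparse cells, with every KO signal above every WT signal, and 1.94 and 1.55 in crowded cells. In WT its rank was 11 from the lowest density effect of 14880 gene names, and 143 of 15443 in KO. The 3 probes gave WT effects between -3.45 and -2.47 and KO effects between -1.69 and -1.54. The difference between genotypes passed the threshold at 2 of the 3, the third giving 0.93.

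Thrombospondin-2, an inhibitor of angiogenesis that also limits matrix proteases, rose with density in KO cells by 2.13 (4.37-fold), from 10.29 and 10.59 to 12.45 and 12.68. Its only probe (A_51_P461877, chromosome 17, 14404116 to 14405379) carried an outlier flag on WT replicate 1, so in WT just replicate 2 is left, with 9.87 at low and 12.00 at high density. The WT effect on that array was 2.13, and the genotype ratios in that dye were 0.71 and 0.68. These single values were not counted in the WT, difference and genotype contrasts. Thrombospondin-3, a pentameric member of the family, rose in both genotypes, by 1.05 in WT (0.91 and 1.20) and by 2.13 in KO (1.96 and 2.31). Its signals were 11.53 and 11.47 in WT at low, 12.44 and 12.67 at high, 11.30 and 11.51 in KO at low and 13.26 and 13.82 at high density (A_51_P267053, chromosome 3, 89312527 to 89312586). The low density values of the genotypes overlapped. The WT effect lies just inside the threshold, which it missed with 0.91 when WT replicate 2 was left out and with 0.81 after median centring of the arrays. The genotype ratio of 0.99 at high density lies just outside it.

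Sparc, whose product SPARC (osteonectin) binds collagen, was bright in every condition and ordered WT low, KO low, WT high, KO high without overlap. At the brightest probe (A_52_P101852, chromosome 11, 55239370 to 55242027) the signals were 14.30 and 14.51 in WT at low and 15.07 and 15.33 at high density. In KO they were 14.73 and 15.06 at low and 16.06 and 16.15 at high density. Sparc rose in KO by 1.21 (2.31-fold), and this value was 0.52 with median centring. The WT effect of 0.80 and the genotype ratios of 0.49 and 0.90 did not pass the threshold. The second probe gave 0.94 in WT and 1.36 in KO.

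Sparcl1, which encodes the SPARC-like protein hevin, passed the threshold with density in WT and stayed near its low density level in KO. The brightest probe (A_52_P64356, chromosome 5, 104319432 to 104319491) gave 6.73 and 6.13 in WT at low density, where 1 of 2 arrays was well above background, and 10.39 and 10.16 at high density. In KO it gave 6.50 and 6.59 at low and 6.95 and 6.81 at high density. Crowded WT cells thus stood apart from the other 3 conditions, and the low density signals of the genotypes overlapped. Sparcl1 rose by 3.85 in WT (14.4-fold), whereas the KO effect was 0.34. The difference of the density effects was -3.51, and -3.32 to -5.00 under other processing, with the WT low density signal well above background on 1 array only. At high density Sparcl1 was lower in KO, with a log2 ratio of -3.40 (-4.58 with the processed signals of the scanner software). The second probe gave 3.25 and 0.12 in WT and KO. These signals are close to background, and with the processed signals of the scanner software the WT effect was 5.74.

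Spondin-2 (mindin), a matrix protein that binds integrins on leukocytes, rose with density in both genotypes and was lower in KO at both densities. Its brightest probe (A_52_P381484, chromosome 5, 33530825 to 33530884) gave 8.24 and 8.20 in WT at low, 12.30 and 12.46 at high, 6.93 and 6.65 in KO at low and 9.22 and 9.16 at high density. The conditions did not overlap. The density effect was 4.15 in WT (17.8-fold) and 2.40 in KO (5.30-fold), and the genotype ratio was -1.44 at low and -3.19 at high density. With the processed signals of the scanner software the KO density effect was 3.35, the genotype ratio at low density -2.28, and the difference of the density effects -1.13 in place of -1.75. At the second probe the effects were 3.28 and 1.30 and the ratios -1.17 and -3.15. Spondin-1 (F-spondin), known from axon guidance, was not measurable. Its 2 probes were not well above background in any condition, apart from 1 array in KO at low density, and no value of it was compared.

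**Figure D2:**
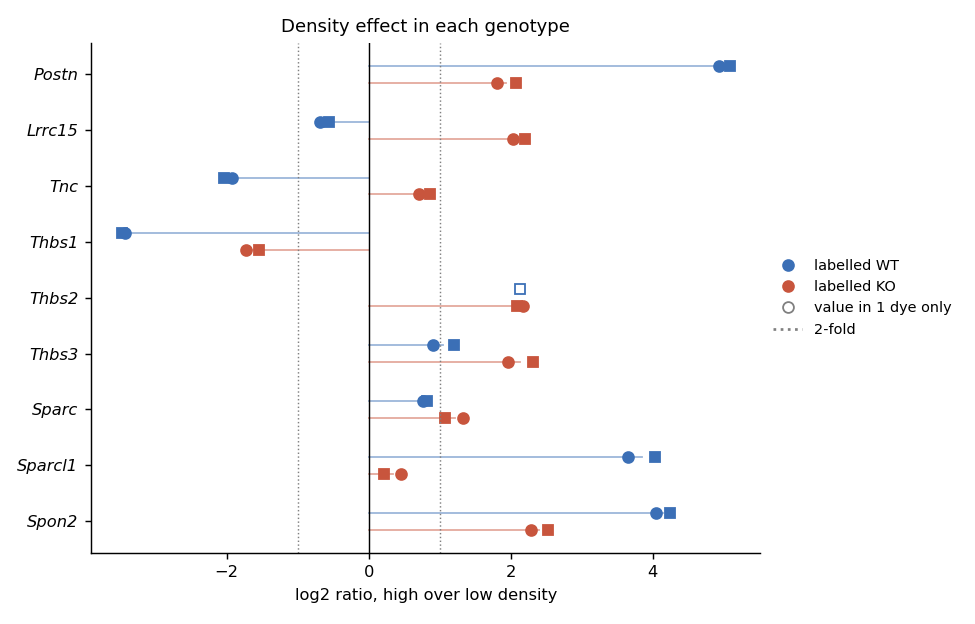
Log2 ratio of high over low density of 9 genes in cells labelled WT (blue) and KO (red), with circles for the replicate 1 and squares for the replicate 2 array and lines from 0 to the mean. Dotted lines mark 2-fold, and the open square is Thbs2 on the WT array that was not flagged. Tnc and Lrrc15 point in opposite directions in the genotypes, and Postn, Sparcl1 and Spon2 reach further in WT.

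Counted over the members, 6 of the 8 compared passed the threshold with density in WT, 4 higher (Postn, Thbs3, Sparcl1 and Spon2) and 2 lower (Tnc and Thbs1). Among all 14880 gene names compared, 15.5% passed, 9.42% higher and 6.09% lower. In KO 7 of 9 passed, 6 higher (Postn, Lrrc15, Thbs2, Thbs3, Sparc and Spon2) and 1 lower (Thbs1), against 11.0% of all names, 7.16% higher and 3.87% lower. The median density effect over the members compared was 0.92 in WT and 1.94 in KO, against 0.06 in either genotype over all names. The members were selected on these contrasts, so nothing is read from the shares.

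The density effects differed between genotypes by at least 2-fold for 7 of 8 members, with Lrrc15, Tnc, Thbs1 and Thbs3 higher in KO, and Postn, Sparcl1 and Spon2 lower. The same rule took 9.53% of all names, 4.55% higher and 4.98% lower. The median over the members compared was 0.75, against 0.02 over all names. Between the genotypes at low density 3 of 8 members passed, Postn and Lrrc15 higher and Spon2 lower in KO, against 15.7% of all names (7.32% higher and 8.36% lower). At high density 6 of 8 passed, Postn, Lrrc15, Tnc and Thbs1 higher and Sparcl1 and Spon2 lower, against 14.5% of all names (6.74% higher and 7.79% lower). The median genotype ratio over the members was 0.11 at low and 1.41 at high density, against 0.03 at either density over all names. Without scaling between arrays the median over all names was 0.27 at both densities. At the brightest probe, the genotype ratios of Thbs1, Thbs3 and Sparcl1 at low density are smaller in size than that shift, so no direction is given for them. For Thbs1 this depends on the probe, since both other probes gave 0.62 and the mean over its probes was 0.45.

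**Figure D3:**
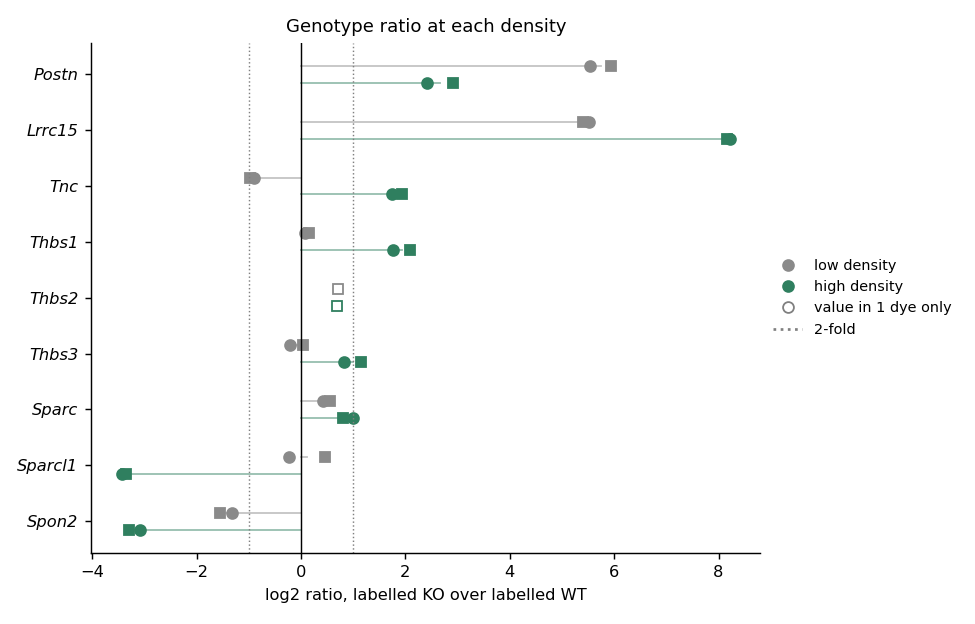
Log2 ratio of labelled KO over labelled WT of 9 genes at low density (grey) and at high density (green), with circles for the replicate 1 and squares for the replicate 2 arrays and lines from 0 to the mean. Dotted lines mark 2-fold, and the open squares are Thbs2, measured in 1 dye only. Lrrc15 reaches 8.19 at high density, and Sparcl1 moves from near 0 at low density to -3.40 at high density.

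Genes with several probes gave the same direction at each probe compared in every contrast. The size of the ratio varied among probes for some genes. For Tnc the difference of the density effects ran from 1.55 to 2.77 over 3 probes, and for Thbs1 from 0.93 to 1.82. For Sparc the 2 probes gave 0.41 and 0.42. The annotated transcript of the Tnc probe that gave 1.55 was AK048765, outside the RefSeq accessions, and 17 of the 19 member probes matched a current RefSeq transcript of the same symbol. Exons were not assigned to the probes, since no genome of build mm8 was used here.

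**Figure D4:**
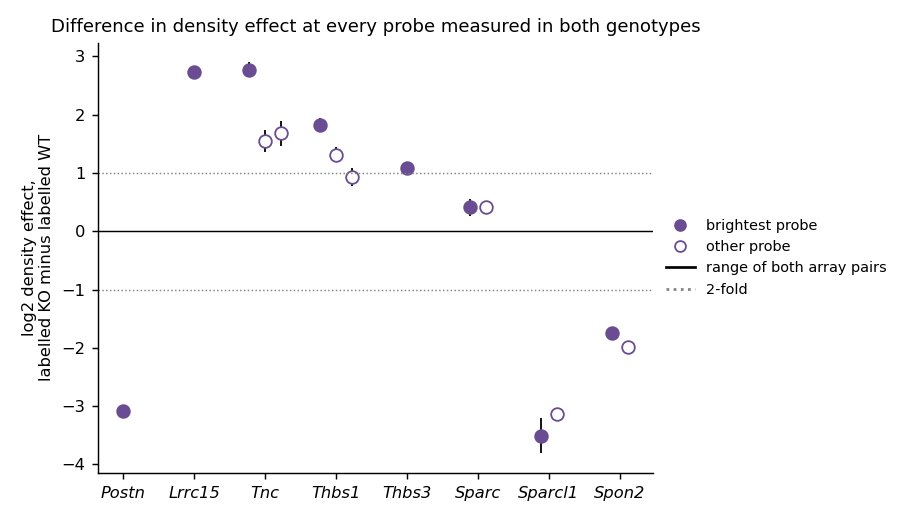
Density effect in KO minus density effect in WT (log2) at every member probe compared in both genotypes, with filled circles for the brightest probe of a gene, open circles for its other probes and lines for the range over both array pairs. All probes of a gene lie on the same side of 0.

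Of the relatives of these families, 17 were on the arrays and 6 to 11 could be compared in a contrast. Tgfbi, a periostin paralogue with fasciclin domains, rose by 4.56 in crowded WT and by 2.83 in crowded KO cells, and was lower in KO by -2.84 at low and -4.58 at high density, the opposite genotype ratio to Postn. Smoc2, a SPARC-related calcium binder, rose by 1.16 in WT and 3.12 in KO. Fstl1, which shares the follistatin-like domain of SPARC, rose by 2.36 in KO, and its WT value was 0.68. Rspo2, an R-spondin that amplifies Wnt signalling, rose by 1.89 in WT, and its KO value was 0.15. With density 5 relatives rose and 0 fell among 9 in WT, and 4 rose and 0 fell among 8 in KO, where 9.42% and 7.16% of all names rose. At high density 3 were higher and 5 lower in KO among 11, with a median of -0.91, against 6.74% higher, 7.79% lower and a median of 0.03 over all names. The tenascin relatives Tnr, the thrombospondin Thbs4, and Spock1, Spock3 and Stab1 were not well above background in any channel.

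Integrins, other receptors and binding partners of the members were compared next. Of 21 compared in WT, 3 rose and 7 fell, with a median of -0.36, and of 22 compared in KO, 9 rose and 2 fell, with a median of 0.76. Over all names 9.42% rose and 6.09% fell in WT and 7.16% rose and 3.87% fell in KO, with a median of 0.06 in either. The difference of the density effects passed the threshold for 5 of 21, all higher in KO, against 4.55% higher and 4.98% lower over all names. Itgb3, the beta subunit of a vitronectin and periostin receptor, fell by 2.10 in WT with a KO value of 0.92, and was lower in KO at low density by -2.79. Fn1, the fibronectin gene, fell by 1.60 in WT and rose by 1.03 in KO, with genotype ratios of -1.30 at low and 1.33 at high density. Itga5, a subunit of the fibronectin receptor, fell by 2.18 in WT with a KO value of -0.68. It was lower in KO by -2.97 at low and -1.47 at high density. Egfr, the epidermal growth factor receptor, which can bind tenascin-C repeats, rose by 2.30 in KO with a WT value of 0.47. Its level was lower in KO by -2.75 at low density, and the genotype ratio of -0.92 at high density did not pass the threshold. Itga8, a subunit of a tenascin-C receptor, was higher in KO by 1.98 at low and 3.39 at high density. The thrombospondin receptor Cd47 did not pass the threshold in any contrast, and Cd36 could not be compared.

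Genes of the contractile apparatus and of collagen matrix, which characterise myofibroblasts, mostly had a higher density effect in KO than in WT. Of 21 compared in WT 4 rose and 7 fell, with a median of -0.51, while of 22 in KO 7 rose and 1 fell, with a median of 0.13, beside the same shares and medians of all names. The difference of the density effects was past the threshold for 13 of 21, 12 of them higher in KO, with a median of 1.20 against 0.02 over all names, of which 9.53% passed. Acta2, smooth muscle alpha-actin, fell by 1.85 in WT with a KO value of -0.47. Tagln (transgelin) fell by 2.66 in WT with -0.25 in KO. Cnn1 (calponin) fell by 3.71 in WT and by 1.34 in KO, and was lower in KO at both densities, by -5.47 and -3.10. Col5a1, a chain of fibril-nucleating collagen V, fell by 1.13 in WT and rose by 1.29 in KO. Col3a1, a collagen gene with the largest rise of the list in each genotype, rose by 4.14 in WT and by 3.44 in KO. Its difference of -0.71 lay in the other direction, under the threshold. Cdh11, an adhesion receptor of fibroblasts, rose by 2.52 in WT and by 1.19 in KO and was the 1 gene of the list with a difference past the threshold in the other direction. Lox, which cross-links collagen, was higher in KO by 1.30 at low and 2.80 at high density. Fap, another surface marker of activated fibroblasts, rose in WT, where the low density side was below the background limit and the rise was at least 2.11-fold, and it also passed the threshold in KO, with a genotype ratio of 0.05 at high density.

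**Figure D5:**
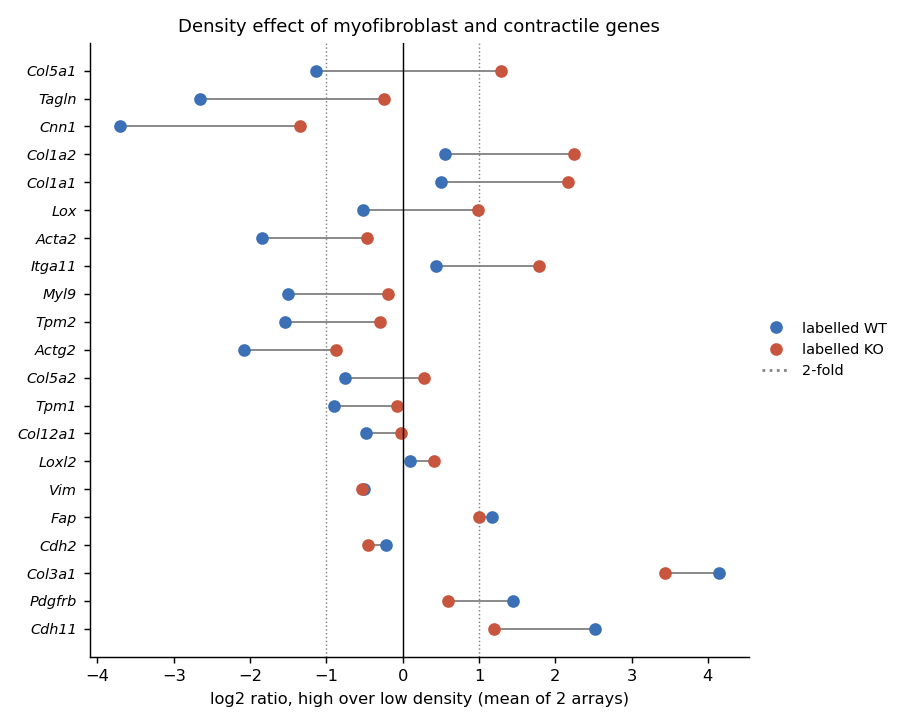
Log2 ratio of high over low density (mean of 2 arrays) of the 21 myofibroblast and contractile genes compared in both genotypes, WT in blue and KO in red, joined by a line and ordered by the difference. Dotted lines mark 2-fold. Contractile genes such as Tagln, Cnn1 and Acta2 lie left of 0 in both genotypes and further left in WT, while Cdh11 and Pdgfrb lie further right in WT.

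TGF-beta ligands, receptors and targets, which regulate many matrix genes, moved in both directions. Of 20 genes compared in each contrast, 3 rose and 8 fell in WT and 6 rose and 3 fell in KO, with medians of -0.39 and -0.11, against 9.42% and 6.09% of all names in WT and 7.16% and 3.87% in KO. Ctgf (Ccn2), a matricellular target of TGF-beta and of YAP and TAZ, fell by 5.77 in WT and by 3.25 in KO. Tgfb3 fell by 1.86 in WT and rose by 1.31 in KO, whereas Tgfb2 rose by 2.28 in WT and had a KO value of -0.20. Ltbp2, a binding protein of the latent TGF-beta family, fell by 1.21 in WT and rose by 2.08 in KO. At high density 5 were higher and 3 lower in KO, with a median of -0.01, against 6.74% higher and 7.79% lower over all names and a median of 0.03.

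Some markers of other lineages moved with the genotype labels. Of the 4 cartilage markers, 2 passed the background limit on both arrays in KO at either density, against 3 in WT at low and 2 at high density, and Col2a1 was lower in KO at low density by -3.22. The log2 summed signal of the list was 10.79 in KO and 12.94 in WT at low density, and 12.82 and 12.77 at high density. Of the adipocyte list, Adipoq and Cfd were not well above background in any channel. The detected ones differed at low density, with Pparg higher in KO by 2.10 and Fabp4 lower by -2.05, and at high density Fabp4 was at least 22.8-fold lower in KO, whereas Pparg had -0.19. The summed level of the list was 11.31 in KO and 10.26 in WT at low density, and 9.93 and 11.29 at high density. Of the macrophage list, Cd14 was lower in KO by -1.79 at low and -1.59 at high density, while Cd68 (-0.10 and -0.38) and Csf1r (0.43 and 0.57) did not pass the threshold. The dyes gave opposite signs for Csf1r, with -0.10 and 0.96 at low and -0.07 and 1.21 at high density. In WT at high density Csf1r was not well above background on either array. The macrophage list had summed levels of 8.91 to 9.05 in KO and 9.52 to 9.82 in WT, the epithelial list 7.98 to 7.99 and 8.13 to 8.39, and the endothelial list 8.35 to 8.36 and 8.35 to 8.49. The skeletal muscle list lay between 7.99 and 8.03 and the neural list, led by Tubb3, between 9.23 and 10.15. Of the skeletal muscle genes, Myog, Myf5 and Des were not well above background in any channel, and Myod1 passed in 1. Undetected probes still add their background to these sums, with mean log2 signals of 5.91 to 6.06 for Myog. The sums of the skeletal muscle, epithelial and endothelial lists are therefore largely background. As sums over different probes, such levels can be compared only within a list. The fibroblast list gave 18.75 to 19.28 in KO and 18.70 to 18.90 in WT. The part of these differences in the values of the members was not tested. In bulk RNA, fewer cells of a type and less RNA per cell cannot be told apart.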

How the data were processed

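RNA of MEFs labelled KO or WT for Lats2 was hybridised to 4 Agilent 2-colour arrays, low against high density, and samples were grouped by the genotype field of the labels. Spot values came from Agilent Feature Extraction (10.5.1.1 in the submitters' processing notes), run by the authors, and the deposited scanner files hold spot and background intensity, processed signal intensity, quality flags coded as 0 or 1, and a log10 ratio of Cy5 to Cy3. The deposited series matrix holds the same log10 ratio turned to high over low density.

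Intensity was corrected by normexp (offset 50, which shrinks the ratios of dim probes) and loess (span 0.3) with limma 3.58.1 in R 4.3.3 (with data.table, version 1.17.8). Spots with an outlier flag were left out. Genotype contrasts used single channels after Aquantile scaling, within a dye. Tables were made with Python 3.11.15, pandas 2.3.3 and numpy 2.4.6, and figures with matplotlib 3.10.9. Positions of probes come from the mm8 annotation in the scanner files. RefSeq names and promoters (GRCm38.p6) were used for names and sequences only. The script for the size rule (2-fold or more, both arrays agreeing in sign) was tested on simulated data. With 1 replicate per condition no significance test was made on the real data. The alternatives covered background correction, dye normalization, scaling, filter, probe summary, threshold, each array and the outlier flags.

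The members and the gene lists were chosen with earlier results of these data known. The genes named are all members, Lats2, of each list the largest values past the threshold and the genes it is usually known by, and the 3 nearest profiles of Postn and of Lrrc15. The lists comprise relatives of the families, receptors and binding partners, myofibroblast and contractile genes, TGF-beta genes, and markers of fibroblasts, epithelium, macrophages, endothelium, skeletal muscle, cartilage, neural cells and adipocytes. Names were followed to current symbols where the array used an older one. The result of 1 gene of the lists is not reported here.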

Additional observations from a re-analysis of the deposited data

Results flagged for a closer look

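For Tnc and for Lrrc15, the density effect had one sign on both WT arrays and the opposite sign on both KO arrays. For Tnc this held at each of its probes. For Lrrc15 it rests on the brightest probe. The second Lrrc15 probe was not well above background in any WT channel and gave WT values of -0.16 and 0.08. The difference, KO minus WT, was 2.77 on the log2 scale for Tnc (-1.98 in WT and 0.79 in KO) and 2.73 for Lrrc15 (-0.62 in WT and 2.11 in KO). The Lrrc15 difference was 3.23 with an offset of 0 and 3.74 with the processed signals of the scanner software. With 1 replicate per condition these differences were not tested. Opposite signs of this kind occurred for 15.2% of the 14168 gene names compared in both genotypes.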

How the results depend on the processing

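Of 41 member ratios in 284 comparisons with other settings, 206 stayed within the standard deviation of the 2 arrays and 78 moved further. Of those past the threshold 0 reversed, but not every setting could have reversed them. Leaving out 1 array could not, because the threshold already requires the same sign on both arrays. The filter for signal in every channel left the values themselves unchanged. Of the 29 ratios past the threshold, 3 fell under it in some setting: Thbs3 (0.81) and Sparc (0.52) with density in WT and KO, and the Thbs3 difference (0.90), each with median centring, and Thbs3 in WT also without WT replicate 2 (0.91). Of the 57 member counts recomputed, 56 stayed within 1.5 times. The exception was the count between genotypes at low density, 3 members, which became 5 with a 1.4-fold threshold. The other main counts, 6 or 7 of 8 or 9 members compared, could not rise out of that band. Within it, the count for density in WT rose from 6 to 8 with the 1.4-fold threshold. The count between genotypes at high density rose from 6 to 8 without scaling between arrays. With 1 array left out, the count was 5 to 6 for the density effect in WT, 7 to 7 in KO, 7 to 7 for their difference, and 3 to 3 and 6 to 7 for the genotype ratio at low and at high density. Over all gene names, the processed signals of the scanner software gave 3952 calls in place of 2307 for density in WT, 3217 in place of 1704 in KO, 2260 in place of 1350 for their difference, and 4197 in place of 2392 and 3953 in place of 2269 for the genotype ratio at low and high density. The authors' log ratios gave 3947, 3211 and 2258 for the density contrasts. An offset of 0 gave 2679 for density in KO and 3597 for genotype at low density, and the 1.4-fold threshold 4456 to 6495. Median centring turned the share of calls that were higher from 60.7% to 47.1% in WT and from 64.9% to 42.8% in KO. Without scaling between arrays that share was 69.1% in place of 46.7% for the genotype ratio at low density and 66.6% in place of 46.4% at high density. With flagged spots kept, a choice made after seeing the data, the genotype counts were 4 at low and 7 at high density. These are out of 9 members compared in place of 8, since Thbs2, flagged on a WT array, then entered. The t-test named in the methods was not run, since there is 1 replicate per condition. No paired analysis was possible because the labels give no replicate numbers that pair WT with KO cultures, although each density effect is already a ratio within 1 array. The number of arrays and the background of dim probes limit the precision, above all for Lrrc15 in WT, Sparcl1 and Spon2 in KO. With the mean over all probes of a gene, the Lrrc15 genotype ratio was 4.79 in place of 5.46 at low and 6.80 in place of 8.19 at high density.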
